A study of Mus musculus with 12 samples.

Results

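The cardiac extracellular matrix beyond its collagens was followed through 45 genes, chosen by name with earlier results of these data known. They were 9 matricellular and adhesive glycoproteins, 10 proteoglycan and hyaluronan genes and 9 laminin and basement membrane genes. The others were 10 proteases and their inhibitors and 7 collagen-processing enzymes and chaperones. All 45 passed the filter on low counts and belong to the 13964 genes tested, out of 38293 gene identifiers in the deposited table. RNA from mouse embryonic ventricles at E15.5 was sequenced in 4 genotypes, with 3 pools of 4 pairs of ventricles in each. The series title names a hereditary human cardiomyopathy and bicuspid aortic valve.

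The Mib1 mutant carried the stop allele Mib1 R530X over a loxP-flanked (flox) allele, together with Tnnt2-Cre. The Cre control carried Mib1 flox over a normal allele with the same Tnnt2-Cre, so that both groups of this pair hold the flox allele and the driver. The triple heterozygote carried Mib1 R530X, an Asxl3 missense allele and Apcdd1 V150I, each in 1 copy and with neither flox nor Cre; the genotype label writes the Asxl3 allele as M1415V and the gene Apcdd, and the protocol writes M1361V and Apcdd1. It was compared with wild-type (WT) embryos. Tnnt2-Cre recombines loxP sites in cardiomyocytes, so the flox allele is removed there and is kept in the other cells of the ventricle, whereas the stop allele is present in every cell. Mib1 encodes a ubiquitin ligase that Notch ligands need in the cells that present them. Strain and litter were not given in the labels used here.

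The matrix is a mesh in which fibronectin, collagens and hyaluronan-bound proteoglycans are laid down, stiffened by crosslinking and cut back by proteases. In the fetal heart, hyaluronan and versican fill the cardiac jelly between endocardium and myocardium, basement membranes of laminin, nidogen and perlecan surround myocytes and vessels, and fibroblasts and the valve mesenchyme make much of the remaining matrix. Matricellular proteins such as tenascin C and periostin sit in this mesh and alter how cells attach to it, and are known for their production at sites of tissue remodelling.

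Of these genes, 3 were called in a comparison: Tnc, Tgfbi and Htra1. Their upstream sequence is shown because they carry the result described next; it comes from RefSeq promoter windows on GRCm38, of 250 bases before to 50 bases after each gene start, and only bases that lie before the start in both RefSeq and GENCODE M21 are printed. Tnc occupies chr4:63959785-64047015 on the minus strand, Tgfbi chr13:56609523-56639562 on the plus strand and Htra1 chr7:130936111-130985660 on the plus strand. The printed stretches are chr4:64047016-64047265, chr13:56609336-56609522 and chr7:130935953-130936110, each 5′ to 3′ on the strand of its gene, with motif matches on either strand in capitals.
Tnc: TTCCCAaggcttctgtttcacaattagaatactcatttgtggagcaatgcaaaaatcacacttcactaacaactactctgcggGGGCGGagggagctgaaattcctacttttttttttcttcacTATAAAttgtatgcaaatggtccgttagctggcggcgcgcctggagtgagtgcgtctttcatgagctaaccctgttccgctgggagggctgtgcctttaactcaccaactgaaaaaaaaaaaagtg
Tgfbi: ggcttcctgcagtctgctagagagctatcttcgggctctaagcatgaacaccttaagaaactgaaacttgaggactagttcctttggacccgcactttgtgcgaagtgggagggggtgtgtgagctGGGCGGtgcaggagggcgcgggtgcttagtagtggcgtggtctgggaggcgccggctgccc
Htra1: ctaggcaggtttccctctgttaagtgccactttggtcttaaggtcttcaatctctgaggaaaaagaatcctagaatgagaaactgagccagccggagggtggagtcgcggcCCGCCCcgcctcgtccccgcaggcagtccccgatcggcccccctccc
The Tnc stretch, 250 bases with 44.8% G and C, holds TTCCCA, which is TGGGAA (the core of the motif of RBPJ, the DNA-binding factor of Notch signalling) read on the other strand, as its first bases, 250 bases before the RefSeq start. It also holds a GC box (GGGCGG) whose first base is 167 bases before that start and a TATA box (TATAAA) at 126 bases. The Tgfbi stretch ends 63 bases before the RefSeq start, has 59.4% G and C over 187 bases, and holds a GC box at 124 bases. The Htra1 stretch ends 92 bases before it, has 60.1% G and C over 158 bases, and holds a GC box, read on the other strand, at 139 bases.

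The promoter table matched 32 of the 45 genes by symbol, and the promoter nearest the GENCODE gene start was used for each. The shares over the table below count all promoters listed, without that choice and without a limit to the genes tested here. TGGGAA, searched on both strands of the whole window, was present in 10 of these 32 promoters (31.2%) and in 25.6% of the 32851 promoters of the table. GGAATG, the core of the motif of the TEAD factors, was present in 3 (9.38%) against 14.7% of all promoters. The AP-1 motif TGANTCA was present in 0, against 7.81% of all promoters, and TATAAA in 7 (21.9%) against 13.6%. GGGCGG was present in 23 (71.9%), against 35.7% of all promoters. The 5 motifs do not contain one another, and a match is a description of the letters only.

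Each pool held 10103548 to 22157720 estimated reads in genes, so that 1 read was worth 0.0452 to 0.0991 CPM, the unit of all levels below (counts scaled for depth, with TMM-scaled library sizes). The 45 genes held 1.13%, 1.10% and 1.06% of the reads of the Mib1 mutant pools, 0.956%, 0.907% and 0.973% of the Cre control pools, 0.863%, 0.953% and 1.04% of the triple heterozygote pools and 0.932%, 0.958% and 0.948% of the WT pools. Mib1 itself was at 54.8, 50.1 and 51.8 CPM in the Mib1 mutant, against 108, 107 and 101 CPM in the Cre control, a log2 fold change of −1.01 ± 0.09 (SE, adjusted p = 4.75e-05). It was at 74.0, 57.9 and 74.1 CPM in the triple heterozygote, against 145, 126 and 136 CPM in WT, a log2 fold change of −0.99 ± 0.09 (SE, adjusted p = 0.000276). The RNA of Xist, made from the inactive X chromosome, was at 0.0950 CPM in the 1st Mib1 mutant pool and 0.387 CPM in the 1st Cre control pool, and at 71.5 to 458 CPM in the other 10 libraries, so results were also computed without those 2 pools. The defining markers of cardiomyocytes fixed for this work were all detected, and their summed level was 37390 to 51830 CPM over the 12 pools.

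Per kilobase of exonic length, the most abundant of the 45 genes in WT ventricles was Sparc, a collagen-binding matricellular protein, at 338 ± 18.9 CPM per kb (SD, n = 3). Serpinh1, the collagen chaperone of the endoplasmic reticulum, followed at 281 ± 15.9 CPM per kb. Sparcl1, a relative of Sparc, was at 105 ± 2.48, the laminin γ chain Lamc1 at 90.9 ± 6.02, the matricellular protein Postn (periostin) at 83.0 ± 10.1 and the adhesive glycoprotein Fn1 (fibronectin) at 77.3 ± 2.18 CPM per kb. The spread of Postn takes in the means of both Lamc1 and Fn1. The lowest were Prelp, a small leucine-rich proteoglycan, at 1.04 ± 0.10 CPM per kb, and Has2, the main hyaluronan synthase of the fetal heart, at 0.912 ± 0.225 CPM per kb. In the Mib1 mutant Sparc was at 367 ± 26.0, Serpinh1 at 320 ± 34.1 and Fn1, the third in order there, at 103 ± 6.16 CPM per kb.

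**Figure D1:**
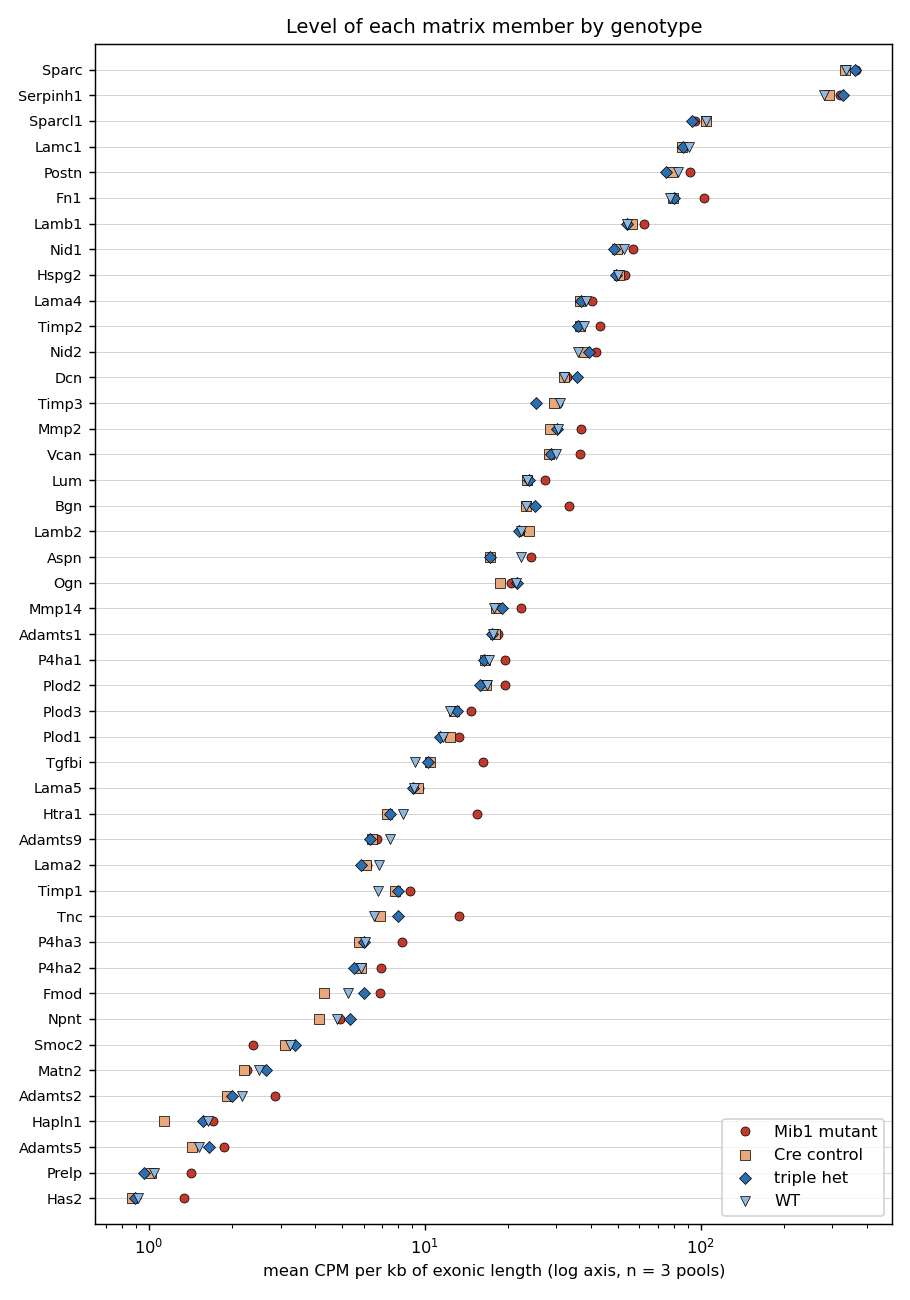
Mean level of each of the 45 matrix genes in the 4 genotypes, in CPM per kb of exonic length on a log axis (1 symbol per genotype, mean of 3 pools). Sparc and Serpinh1 stand above all others in each genotype, and Has2 and Prelp are the lowest in each genotype.

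In the Mib1 mutant, 3 of the 45 genes rose relative to the Cre control and 0 fell. They were Tnc (tenascin C, a glycoprotein that loosens cell attachment), Tgfbi (an integrin-binding glycoprotein induced by TGF-β) and Htra1 (a secreted serine protease that cleaves matrix proteins). Over all genes tested, 0.909% were called higher and 0.594% lower, by the quasi-likelihood test of edgeR and an adjusted p (Benjamini-Hochberg over all genes) under 0.05. Of the 45, 42 had a positive log2 fold change, against 51.2% of all genes, and their median was 0.21, against 0.0046 over all genes. At an unadjusted p under 0.05, 20 were higher and 1 lower, against 7.35% and 6.65% of all genes. The 3 Mib1 mutant pools all lay above the 3 Cre control pools for 18 genes and all below for 2, against 8.86% and 7.75% of all genes. The 45 genes were chosen with earlier results of these data known, so these counts are descriptive. Whole ventricles were sequenced, so more cells of a matrix-making type and more RNA per cell cannot be told apart.

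Tnc was at 97.8, 109 and 104 CPM in the Mib1 mutant, against 56.9, 47.8 and 55.5 CPM in the Cre control. Every Mib1 mutant pool was far above every Cre control pool, and the log2 fold change was 0.95 ± 0.11 (SE, adjusted p = 0.000251), a 1.94-fold level. Htra1 was at 42.3, 54.4 and 36.9 CPM in the Mib1 mutant, against 20.8, 20.9 and 21.1 CPM in the Cre control. The Cre control pools were nearly equal and the Mib1 mutant pools were spread out above them, with a log2 fold change of 1.09 ± 0.13 (SE, adjusted p = 0.000285). Tgfbi was at 65.9, 62.0 and 55.3 CPM in the Mib1 mutant, against 38.8, 36.2 and 43.5 CPM in the Cre control. The groups did not overlap, and the log2 fold change was 0.62 ± 0.11 (SE, adjusted p = 0.00626). Tnc and Htra1 were called under every alternative; Tgfbi was not called without the 2 pools of low Xist (log2 fold change 0.55, adjusted p = 0.110). Without those pools 36 of the 45 genes had a positive log2 fold change, with a median of 0.16.

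The annotated span of Htra1 lies wholly within that of Fgfr2, which runs on the opposite strand, and an overlap of 49550 bases is annotated. Fgfr2 was at 12.4, 19.0 and 11.7 CPM in the Mib1 mutant, against 11.5, 9.83 and 11.7 CPM in the Cre control, with a log2 fold change of 0.38 ± 0.18 (SE, adjusted p = 0.358). The Tnc span overlaps a noncoding transcript, 8030451A03Rik, on the opposite strand, which was at no more than 0.172 CPM in any pool. The library kit keeps strand, but whether counting used it is not given in the sources used here.

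**Figure D2:**
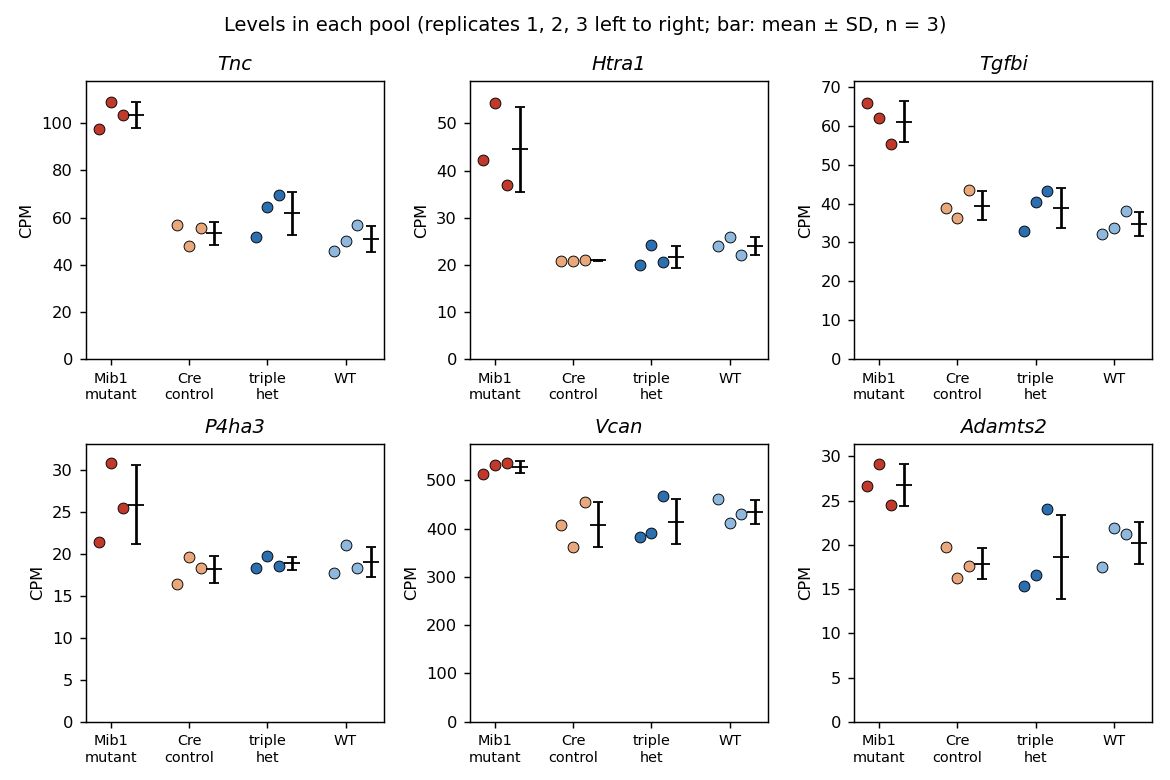
Level of 6 matrix genes in each pool (CPM, linear axes from 0), with 3 points per genotype and a bar for the mean ± SD. Tnc, Htra1 and Tgfbi are higher in all 3 Mib1 mutant pools than in any pool of the other 3 genotypes; P4ha3, Vcan and Adamts2 are shown as the next 3 genes by p.

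The next 3 genes by p in this comparison did not pass the adjusted threshold. P4ha3, a subunit of the prolyl hydroxylase that stabilises the collagen helix, was at 21.4, 30.9 and 25.4 CPM in the Mib1 mutant, against 16.4, 19.7 and 18.4 CPM in the Cre control. The groups did not overlap (log2 fold change 0.51 ± 0.13, SE, adjusted p = 0.0596). Vcan (versican, the hyaluronan-binding proteoglycan of cardiac jelly and valves) was at 512, 533 and 535 CPM in the Mib1 mutant, against 408, 361 and 455 CPM in the Cre control. The Mib1 mutant pools were close together and all above the Cre control pools (log2 fold change 0.37 ± 0.09, SE, adjusted p = 0.0634). Adamts2, which removes the amino-terminal propeptide of fibrillar procollagen, was at 26.6, 29.2 and 24.5 CPM in the Mib1 mutant, against 19.7, 16.2 and 17.7 CPM in the Cre control. These groups did not overlap either (log2 fold change 0.58 ± 0.15, SE, adjusted p = 0.0700). By edgeR's test P4ha3 passed without the 1st Mib1 mutant pool (adjusted p = 0.0211) and Vcan without the 3rd Cre control pool (adjusted p = 0.0489). All 3 were called by DESeq2 (adjusted p = 0.0270 for P4ha3, 0.00685 for Vcan and 0.0260 for Adamts2) and by edgeR without a filter on low counts (0.0158, 0.0131 and 0.00679). DESeq2 also called Fn1 and Bgn, and edgeR without that filter called Fn1, Bgn, Aspn, Fmod and Mmp2.

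**Figure D3:**
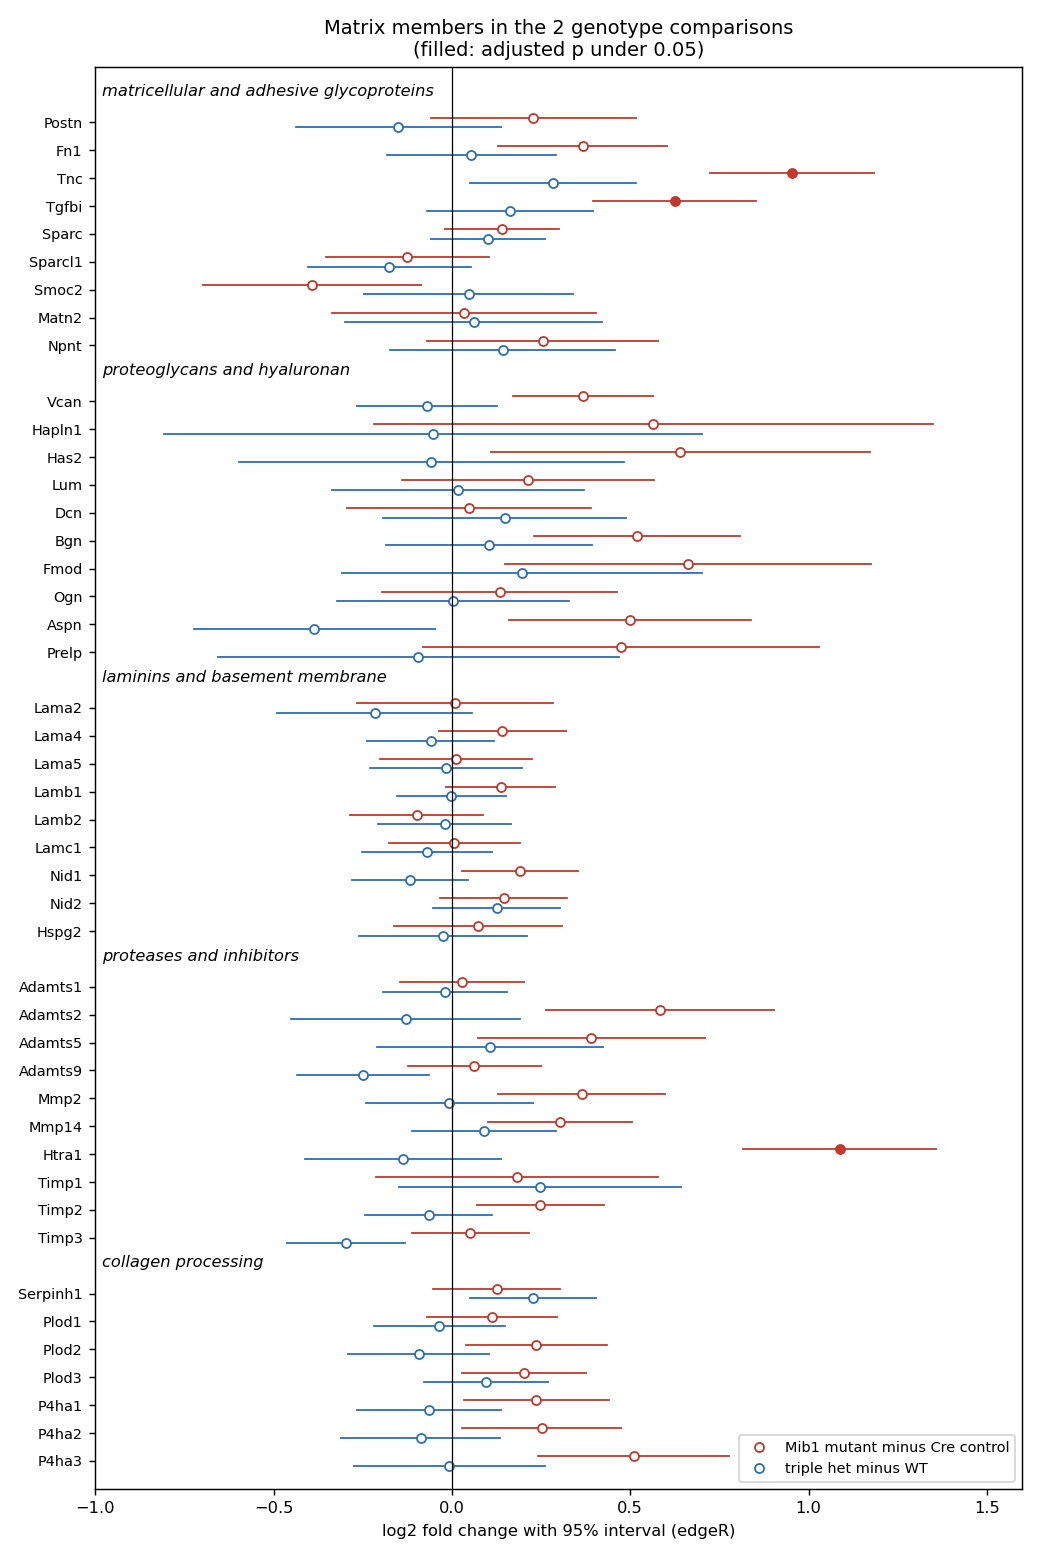
Log2 fold change of each matrix gene with its 95% interval (edgeR), by role, for the Mib1 mutant minus the Cre control and for the triple heterozygote minus WT; filled symbols have an adjusted p under 0.05. The filled symbols are Tnc, Tgfbi and Htra1 in the Mib1 mutant comparison, where 42 of 45 points lie above 0, against 18 of 45 in the triple heterozygote comparison.

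Among the matricellular and adhesive glycoproteins, 2 of 9 rose in the Mib1 mutant, 7 had a positive log2 fold change, and the median was 0.23. Fn1 had 1224, 1119 and 1257 CPM in the Mib1 mutant, against 1015, 772 and 1005 CPM in the Cre control (log2 fold change 0.37, adjusted p = 0.125), without overlap. Postn pools overlapped (log2 fold change 0.23), as did those of Npnt (nephronectin, an integrin α8β1 ligand; 0.25) and Matn2, a matrilin adaptor protein (0.03). Sparc was at 1371, 1496 and 1301 CPM in the Mib1 mutant, against 1232, 1282 and 1267 CPM in the Cre control, without overlap (log2 fold change 0.14). Smoc2, a calcium-binding relative of Sparc, was lower, at 16.0, 18.2 and 15.4 CPM in the Mib1 mutant, against 22.7, 20.1 and 22.2 CPM in the Cre control. Its pools did not overlap, and its log2 fold change was −0.39 ± 0.14 (SE, adjusted p = 0.213). Sparcl1 had a log2 fold change of −0.13, with overlapping pools.

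All 10 proteoglycan and hyaluronan genes had a positive log2 fold change in the Mib1 mutant, with a median of 0.49, and 0 passed the adjusted threshold. At an unadjusted p under 0.05 there were 5, namely Vcan, Has2, Bgn, Fmod and Aspn, and their pools did not overlap. Bgn (biglycan, a collagen- and growth factor-binding small proteoglycan) was at 188, 251 and 173 CPM in the Mib1 mutant, against 141, 142 and 144 CPM in the Cre control (log2 fold change 0.52, adjusted p = 0.0750). Aspn (asporin) was at 54.8, 69.2 and 47.9 CPM in the Mib1 mutant, against 38.5, 47.2 and 36.0 CPM in the Cre control (log2 fold change 0.50, adjusted p = 0.146). WT pools of Aspn, at 51.6, 55.0 and 51.1 CPM, were above every Cre control pool and overlapped the Mib1 mutant pools. Fmod (fibromodulin) and Has2 had log2 fold changes of 0.66 ± 0.24 and 0.64 ± 0.25 (SE), with adjusted p of 0.210 and 0.246. The pools of Hapln1, which links versican to hyaluronan, of the small leucine-rich proteoglycans Lum, Dcn and Ogn, and of Prelp overlapped, with log2 fold changes of 0.05 to 0.56. The 2nd Mib1 mutant pool was the highest of its group for 8 of the 10 genes, and Hapln1 was at 16.5 CPM there, against 7.03 and 6.64 CPM in the other Mib1 mutant pools.

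The laminin and basement membrane genes had the smallest median log2 fold change of the 5 roles, 0.07, and 0 of 9 were called. Nid1 (nidogen, which joins laminin to collagen IV) was at 433, 365 and 382 CPM in the Mib1 mutant, against 350, 333 and 351 CPM in the Cre control, without overlap (log2 fold change 0.19, adjusted p = 0.258). Lamb1 pools did not overlap either (log2 fold change 0.14), and Lamb2, another laminin β chain, was at 134, 133 and 139 CPM in the Mib1 mutant, against 142, 139 and 154 CPM in the Cre control (log2 fold change −0.10, adjusted p = 0.678). The laminin chains Lama2, Lama4, Lama5 and Lamc1, the nidogen Nid2 and Hspg2 (perlecan) had overlapping pools and log2 fold changes of 0.01 to 0.145. For Lamc1 the 95% interval was −0.18 to 0.19. Within groups, the 2nd Cre control pool was lowest for 8 of the 9 genes and the 2nd Mib1 mutant pool for 7 of the 9.

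Of the proteases and inhibitors, 1 of 10 rose and all 10 had a positive log2 fold change, with a median of 0.28. Mmp2 (gelatinase A) was at 129, 135 and 108 CPM in the Mib1 mutant, against 94.4, 94.3 and 100 CPM in the Cre control (log2 fold change 0.36, adjusted p = 0.123). Mmp14, the membrane-bound protease that activates pro-MMP2, was at 148, 137 and 116 CPM in the Mib1 mutant, against 108, 106 and 110 CPM in the Cre control (log2 fold change 0.30, adjusted p = 0.139). Timp2, the inhibitor that takes part in that activation, was at 155, 172 and 180 CPM in the Mib1 mutant, against 141, 142 and 144 CPM in the Cre control (log2 fold change 0.25, adjusted p = 0.171). For each of the 3 genes the groups did not overlap and the adjusted threshold was missed. Adamts5, a versican-cleaving protease of the developing valves, had a log2 fold change of 0.39 (adjusted p = 0.238), without overlap. The versican-cleaving Adamts1 and Adamts9 and the metalloproteinase inhibitors Timp1 and Timp3 had overlapping pools and log2 fold changes of 0.03 to 0.18.

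All 7 collagen-processing genes had a positive log2 fold change, with a median of 0.24, and 0 were called. At an unadjusted p under 0.05 there were 5: the prolyl 4-hydroxylase subunits P4ha1, P4ha2 and P4ha3 and the lysyl hydroxylases Plod2 and Plod3. Only the pools of P4ha3 were without overlap. Apart from P4ha3, log2 fold changes were 0.11 for Plod1, 0.13 for Serpinh1, 0.20 for Plod3 and 0.24 to 0.25 for the others.

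**Figure D4:**
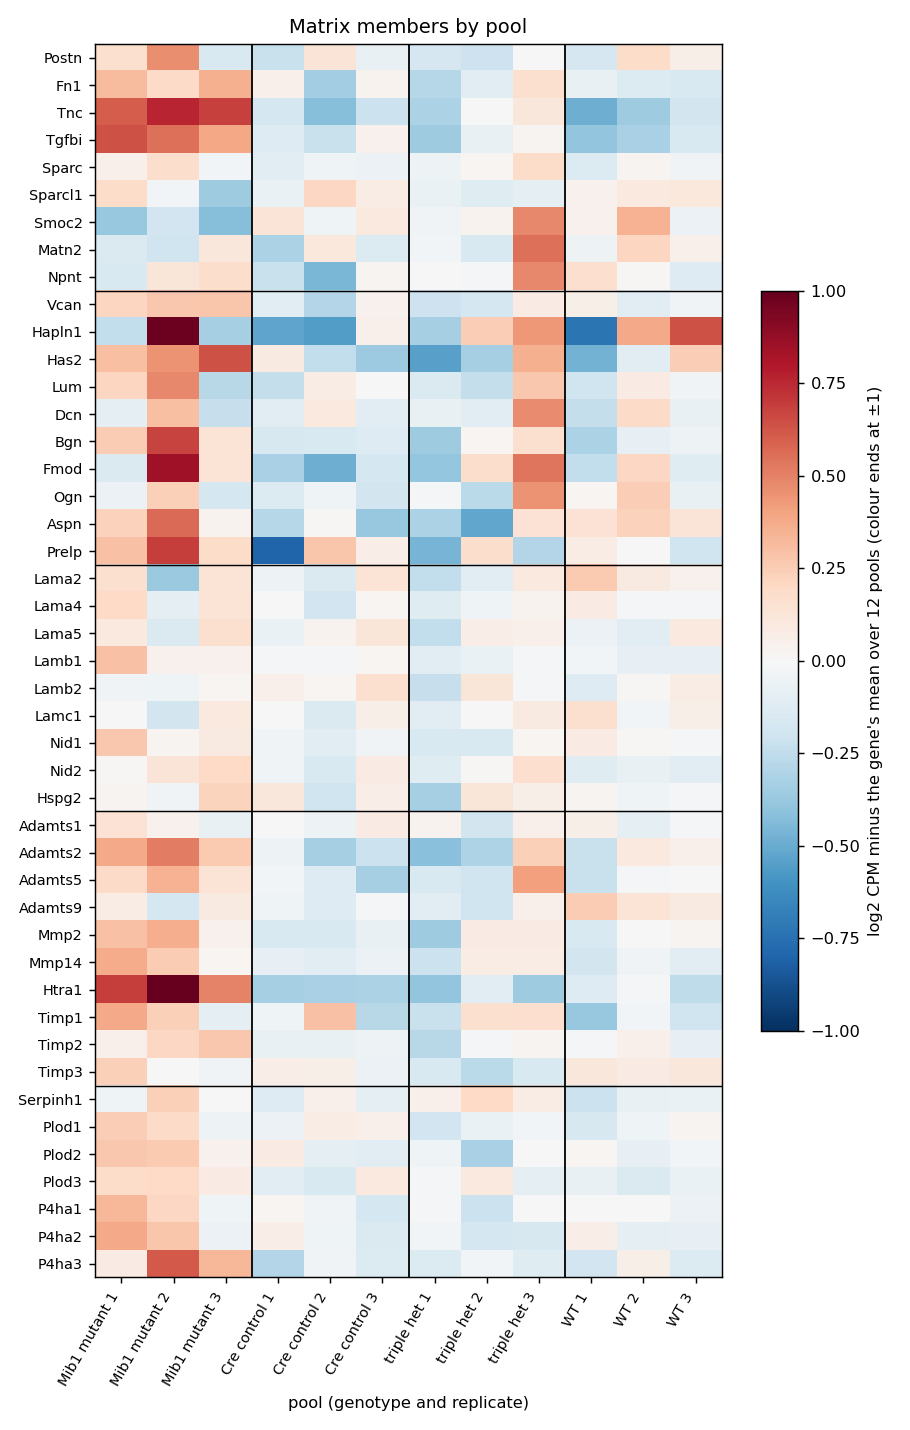
Log2 CPM of each matrix gene in each pool minus its mean over the 12 pools (colour ends at ±1), with genes in rows by role and pools in columns by genotype. The Mib1 mutant columns are red for Tnc, Tgfbi and Htra1, and the 3rd triple heterozygote pool is the reddest of its group.

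In the triple heterozygote, 0 of the 45 genes passed the adjusted threshold against WT, where 0.0215% of all genes tested did, Mib1 among them. A positive log2 fold change was found for 18 of 45, against 49.9% of all genes, and the median was −0.02. At an unadjusted p under 0.05 in edgeR, 2 were higher and 3 lower, against 3.82% and 4.84% of all genes, and DESeq2 called 1. The pools were without overlap and higher for 1 gene, and lower for 3, against 7.67% and 9.19% of all genes. The 3rd triple heterozygote pool was the highest of its group for 35 of 45 genes, and the 1st was the lowest for 29. The number with a positive log2 fold change was 9 without the 3rd pool and 29 without the 1st.

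Timp3, a matrix-bound inhibitor of metalloproteinases, was at 211, 195 and 211 CPM in the triple heterozygote, against 254, 249 and 254 CPM in WT. The groups did not overlap, and the log2 fold change was −0.30 ± 0.08 (SE, adjusted p = 0.468 by edgeR); Timp3 was the gene that DESeq2 called (adjusted p = 0.0348). Timp3 lies within the span of Syn3 on the opposite strand, and Syn3 was at 1.12 to 7.71 CPM over the 12 pools. Adamts9 was at 93.1, 87.7 and 105 CPM in the triple heterozygote, against 120, 111 and 107 CPM in WT, without overlap (log2 fold change −0.25 ± 0.09, SE, adjusted p = 0.559). Serpinh1 was at 771, 855 and 781 CPM in the triple heterozygote, against 641, 705 and 710 CPM in WT, without overlap (log2 fold change 0.23 ± 0.08, SE, adjusted p = 0.565). Tnc was at 51.8, 64.5 and 69.5 CPM in the triple heterozygote, against 45.9, 50.2 and 56.7 CPM in WT. These pools overlapped, and the log2 fold change was 0.28 ± 0.11 (SE, adjusted p = 0.565). Aspn had a log2 fold change of −0.39 with overlapping pools, and Sparcl1 one of −0.18 with pools that did not overlap.

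Neither Htra1 nor Tgfbi was called in the triple heterozygote. Htra1 was at 20.0, 24.3 and 20.5 CPM in the triple heterozygote, against 23.9, 25.9 and 22.03 CPM in WT (log2 fold change −0.14), and Tgfbi was at 33.0, 40.3 and 43.2 CPM, against 32.2, 33.8 and 38.1 CPM in WT (log2 fold change 0.16). Both genes had overlapping pools.

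The difference between the 2 effects, that of the Mib1 mutant relative to the Cre control less that of the triple heterozygote relative to WT, was tested in the same fit. It passed the adjusted threshold for 1 of the 45 genes, Htra1, at 1.22 ± 0.18 on the log2 scale (SE, adjusted p = 0.00623), where 0.516% of all genes passed. The difference was positive for 39 of 45 genes, against 49.7% of all genes, with a median of 0.28. At an unadjusted p under 0.05, 16 were positive and 1, Smoc2, was negative, against 7.63% and 6.17% of all genes. For Tnc it was 0.67 ± 0.15 (SE, adjusted p = 0.0751) and for Aspn 0.89 ± 0.22 (SE, adjusted p = 0.114) by edgeR. DESeq2 called both (adjusted p = 0.00958 for Tnc and 0.0233 for Aspn), as did edgeR without a filter on low counts (0.00464 and 0.00148), which also called Adamts2 (0.0495). For Tgfbi the difference was 0.46 ± 0.15 (SE, adjusted p = 0.232). The Aspn difference joined a log2 fold change of 0.50 in the Mib1 mutant comparison to one of −0.39 in the triple heterozygote comparison. Aspn pools of the Mib1 mutant and WT overlapped. Without the 3rd triple heterozygote pool 3 of the 45 were called, Aspn and Adamts2 beside Htra1.

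Between the control groups, which differ by the flox allele and Tnnt2-Cre, 0 of the 45 genes passed the adjusted threshold, where 0.279% of all genes did, and DESeq2 called 0. This comparison uses the same Cre control and WT pools as the comparisons above. A positive log2 fold change of the Cre control over WT was found for 15 of 45 genes, against 49.6% of all genes, and the median was −0.05. At an unadjusted p under 0.05 in edgeR, 0 were higher and 2 lower, against 4.23% and 4.2% of all genes. In the Cre control Adamts9 reached 97.9, 92.4 and 99.5 CPM, against 120, 111 and 107 CPM in WT (log2 fold change −0.22 ± 0.09, SE, adjusted p = 0.502). Aspn reached 38.5, 47.2 and 36.0 CPM in the Cre control, against 51.6, 55.0 and 51.1 CPM in WT (log2 fold change −0.38 ± 0.16, SE, adjusted p = 0.549). Neither gene's groups overlapped. Tgfbi and Htra1, next by p, had log2 fold changes of 0.19 and −0.19, with adjusted p of 0.668 and 0.720.

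By median coefficient of variation, the spread between pools of a group was largest for the proteoglycan and hyaluronan genes in each genotype. The median coefficient of variation of the proteoglycan and hyaluronan genes was 19.5% in the Mib1 mutant, 11.4% in the Cre control, 24.2% in the triple heterozygote and 10.7% in WT. For the laminin and basement membrane genes it was 9.72%, 7.30%, 9.95% and 4.10% in the same order of genotypes. These were not always the lowest: proteases and inhibitors were at 4.24% in the Cre control, and collagen-processing genes at 6.03% in the triple heterozygote. Some proteoglycan and hyaluronan genes were at low levels, such as Has2 at 2.95, 3.79 and 4.85 CPM in WT. The part of level in this spread was not tested. Several of the proteoglycan genes are genomic neighbours: Vcan and Hapln1 are 43.7 kb apart on chromosome 13, Ogn and Aspn 40.5 kb apart on chromosome 13, Lum and Dcn 47 kb apart on chromosome 10, and Fmod and Prelp 116 kb apart on chromosome 1. In the Mib1 mutant comparison the log2 fold changes within these pairs were 0.37 and 0.56, 0.13 and 0.50, 0.21 and 0.05, and 0.66 and 0.47. The proteases Adamts1 and Adamts5 are 53.1 kb apart on chromosome 16, with log2 fold changes of 0.03 and 0.39.

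A further 142 genes of the same pathways, in 6 lists, were listed beside the 45, and 114 were tested. In the Mib1 mutant 7 of these rose and 0 fell, against 0.909% and 0.594% of all genes. A positive log2 fold change was found for 88, against 51.2% of all genes, and the median was 0.20. Adamtsl2, a fibrillin-binding regulator of the TGF-β pathway, was at 28.8, 27.5 and 27.0 CPM in the Mib1 mutant, against 8.50, 12.1 and 10.9 CPM in the Cre control (log2 fold change 1.40 ± 0.14, SE, adjusted p = 6.62e-05). Itga9, whose integrin α9β1 is a receptor for tenascin C, was at 168, 132 and 160 CPM in the Mib1 mutant, against 86.2, 83.5 and 96.6 CPM in the Cre control (log2 fold change 0.79 ± 0.10, SE, adjusted p = 0.000431). In both genes every Mib1 mutant pool was above every Cre control pool. Adamts15, a versican-cleaving protease, was at 19.6, 21.2 and 20.7 CPM in the Mib1 mutant, against 13.6, 12.3 and 13.9 CPM in the Cre control (log2 fold change 0.62, adjusted p = 0.00590).

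The other 4 related genes that rose were the crosslinking enzyme Loxl2 (log2 fold change 0.42, adjusted p = 0.0176), the protease Adamts8 (0.66, adjusted p = 0.0245), the matricellular protein Ccn2 (0.65, adjusted p = 0.0267) and the glypican Gpc6 (0.39, adjusted p = 0.0289). These calls by edgeR depended on single pools. Loxl2 was not called without the 1st Mib1 mutant pool (adjusted p = 0.0667) or the 2nd Cre control pool (0.0983), and Adamts8 without the 3rd Mib1 mutant pool (0.0624) or the 2nd (0.123) or 3rd (0.129) Cre control pool. Ccn2 was not called without the 1st (0.0930) or 3rd (0.134) Cre control pool, and Gpc6 without the 1st (0.0598) or 3rd (0.0785) Mib1 mutant pool or the 2nd (0.131) or 3rd (0.128) Cre control pool. Without the 2 pools of low Xist together, Loxl2, Ccn2 and Gpc6 were not called. By list, 3 of 32 other proteases and inhibitors rose, 1 of 17 other proteoglycan and hyaluronan genes, 1 of 18 other glycoproteins, 1 of 18 other collagen-processing and crosslinking genes, 1 of 19 matrix receptors and 0 of 10 other basement membrane genes. In the triple heterozygote 0 of the 114 were called against WT, and 0 in the Cre control against WT, with 59 and 47 positive log2 fold changes, against 49.9% and 49.6% of all genes. Among them 3 were higher and 7 lower in the triple heterozygote at an unadjusted p under 0.05, against 3.82% and 4.84% of all genes, and 1 higher and 6 lower in the Cre control, against 4.23% and 4.2%.

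**Figure D5:**
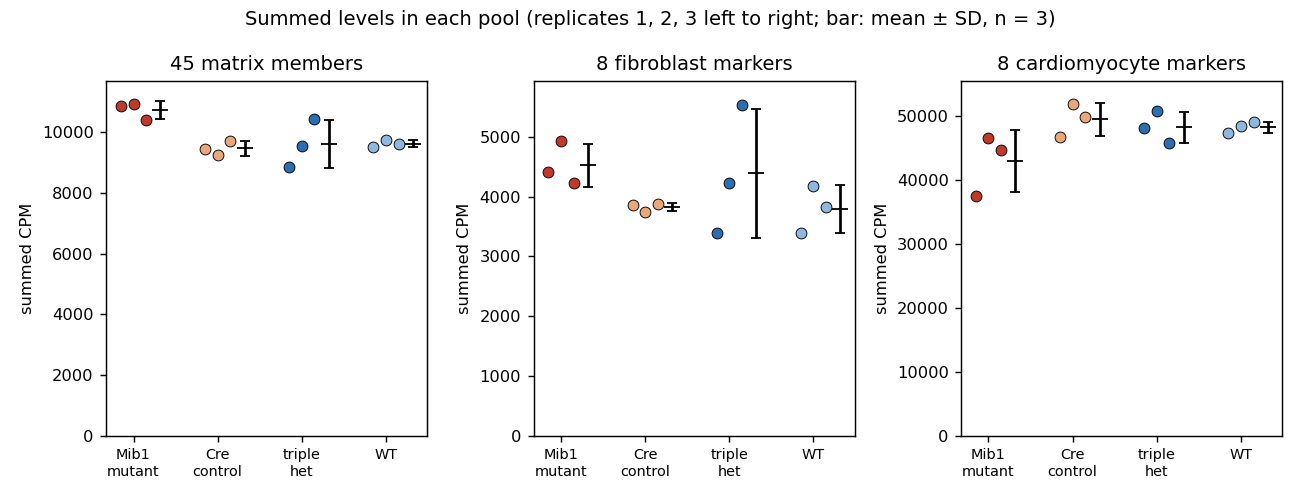
Summed CPM in each pool of the 45 matrix genes, of 8 fibroblast markers and of 8 cardiomyocyte markers (linear axes from 0), with 3 points per genotype and a bar for the mean ± SD. In the Mib1 mutant pools the matrix sums (10390 to 10930 CPM) and the fibroblast sums are above those of the Cre control, and the cardiomyocyte sums are below them.

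Summed over the 45 genes, the level was 10860, 10930 and 10390 CPM in the Mib1 mutant, against 9461, 9239 and 9723 CPM in the Cre control, without overlap. It was 8845, 9541 and 10420 CPM in the triple heterozygote, against 9499, 9729 and 9623 CPM in WT, where the triple heterozygote pools spread on both sides of the WT pools. Markers of cell types moved beside these values. Of 8 fibroblast markers, 7 had a positive log2 fold change in the Mib1 mutant (median 0.28, 0 called), against 51.2% of all genes. They summed to 4227 to 4926 CPM in the Mib1 mutant, against 3743 to 3873 CPM in the Cre control. In the triple heterozygote they summed to 3397, 4234 and 5539 CPM, highest in the 3rd pool, against 3383, 4185 and 3821 CPM in WT. Most of these sums is RNA of the collagen genes Col1a1, Col1a2 and Col3a1. The other 5 fibroblast markers summed to 433, 467 and 457 CPM in the Mib1 mutant, against 479, 536 and 498 CPM in the Cre control, lower and without overlap. Most of that sum is Gsn (gelsolin), at 311, 334 and 344 CPM in the Mib1 mutant, against 379, 436 and 395 CPM in the Cre control. Pdgfra, Meox1 and Dpep1 were instead higher in the Mib1 mutant without overlap. The fibroblast transcription factor Tcf21 was at 28.5, 34.5 and 26.2 CPM there, against 25.3, 28.2 and 22.3 CPM, with overlap. The mean log2 level over the 5 markers was 5.305, 5.463 and 5.277 in the Mib1 mutant, against 5.128, 5.227 and 5.111 in the Cre control. In the triple heterozygote the 5 markers summed to 469, 523 and 461 CPM, lowest in the 3rd pool, against 451, 470 and 490 CPM in WT. Gsn, Meox1 and Tcf21 were lowest in that 3rd pool, whereas Pdgfra (53.6, 56.7 and 65.5 CPM) and Dpep1 (2.90, 4.75 and 6.34 CPM) were highest there. Tcf21 was at 21.6, 28.3 and 21.3 CPM in the triple heterozygote, against 21.6, 24.7 and 24.0 CPM in WT. The mean log2 level over the 5 markers was 4.908, 5.191 and 5.117 in the triple heterozygote, against 5.087, 5.192 and 5.231 in WT. Of 8 cardiomyocyte markers, 7 had a negative log2 fold change in the Mib1 mutant (median −0.24, 0 called), and they summed to 37390 to 46560 CPM in the Mib1 mutant, against 46700 to 51830 CPM in the Cre control. Their mean log2 level was 11.17, 11.57 and 11.48 in the Mib1 mutant, against 11.56, 11.69 and 11.62 in the Cre control, with overlap. The part of these shifts in the matrix result was not tested.

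Of 8 valve mesenchyme markers, 7 had a positive log2 fold change in the Mib1 mutant and 2, Prrx2 and Tbx20, rose; they summed to 716 to 756 CPM in the Mib1 mutant, against 582 to 606 CPM in the Cre control. Most of that sum is Tbx20, which cardiomyocytes also express, at 670, 671 and 638 CPM in the Mib1 mutant, against 550, 515 and 522 CPM in the Cre control. The other 7 markers summed to 67.2, 85.2 and 77.8 CPM in the Mib1 mutant, against 56.0, 67.7 and 60.5 CPM in the Cre control, with overlap. Of 8 mural markers, 4 were positive (median 0.05) and 1, Tagln, rose. They summed to 710 to 770 CPM in the Mib1 mutant, against 645 to 667 CPM in the Cre control and 694 to 750 CPM in WT. Tagln, Cnn1 and Pdgfrb were higher in the Mib1 mutant than in the Cre control without overlap. Myh11 was lower without overlap, at 1.43, 1.12 and 0.259 CPM in the Mib1 mutant, against 1.84, 3.72 and 1.69 CPM in the Cre control. Of 8 epicardial markers 7 were positive (median 0.10, 0 called), and of 8 endothelial and endocardial markers 5 (median 0.03, 0 called). The 8 macrophage and leukocyte markers were all negative (median −0.59), 2 of them, Lyz2 and C1qb, fell, and they summed to 46.2 to 62.1 CPM in the Mib1 mutant, against 74.0 to 94.4 CPM in the Cre control. The 7 erythroid markers were all negative in the Mib1 mutant (median −0.23, 0 called) and all positive in the triple heterozygote, where 2, Hba-a1 and Hba-a2, rose. Of all genes tested, 51.2% were positive, 0.909% were called higher and 0.594% lower in the Mib1 mutant comparison. In the triple heterozygote comparison 49.9% of all genes were positive and 0.0215% were called in either direction. Liver markers summed to at most 22.6 CPM and markers of glia and neural crest to at most 6.49 CPM in any pool, and no marker of any list was at 0 in all pools. The part of these values in the matrix result was not tested either.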

How the data were processed

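Per the labels' protocols, polyA RNA of pooled ventricles was made into libraries with a strand-keeping kit and read once over 60 bases. GRCm38, RSEM, limma, cutadapt and bcl2fastq 2.20.0.422 are listed without roles in the submitters' processing notes. Not given in the sources used here were the aligner, the annotation release and strand use in counting. A single table was deposited, of expected counts from RSEM, which divide reads shared between genes; 9.64% of its values were not whole (tolerance 1e-06). Columns were matched to samples by name; those called mutant name neither flox nor Cre, from which they were inferred to be the triple heterozygote. All 12 columns were used. Of 38293 identifiers, 36429 were in GENCODE M21 (GRCm38), which gave symbols, positions and exonic lengths.

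After rounding, the counts went into edgeR 4.0.16 (R 4.3.3), with its two-sided quasi-likelihood F test (TMM, filterByExpr, 13964 genes with 99.9% of counts, 1 fit of 4 groups, 8 residual degrees of freedom, Benjamini-Hochberg over all genes, threshold 0.05). The procedure was run on simulated counts drawn with means and dispersions estimated from these data, so that run is not an independent check. The SE is the log2 fold change divided by the square root of F. Replicates were pools, whose litters are not stated. The p-values judge differences against the spread between pools, estimated from all 12 libraries with information shared across genes. Every pair of pools within a group exceeded sampling noise, with a chi-square over its degrees of freedom of 2.05 to 13.3. Alternatives were median-ratio size factors, no filter, DESeq2 1.42.0, only the libraries compared, a replicate block, leaving out the pools of low Xist, and leaving out each pool.

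The 45 genes, the 6 related lists and 10 marker lists were chosen with earlier results of these data known; 1 gene of the related lists is not reported here. Values of every pool are given for matrix genes called in any comparison. They are also given for the 6 with the smallest p in the Mib1 mutant comparison and the 4 in each of the triple heterozygote and control comparisons. Related genes called are named, up to 8 per comparison, with pool values for Adamtsl2, Itga9 and Adamts15 only. Values of other genes illustrate their role and were chosen after their values were seen.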

Additional observations from a re-analysis of the deposited data

Results flagged for a closer look

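For 4 of the matrix and related genes reported here, the effect of the Mib1 mutant relative to the Cre control differed from that of the triple heterozygote relative to WT, by edgeR's test of the difference itself with adjustment over all genes. These 4 were among 45 matrix genes and 114 related genes tested, and 0.516% of all genes passed. On the log2 scale the difference was 1.22 for Htra1 (adjusted p = 0.00623) and 0.93 for Itga9 (adjusted p = 0.00623). It was 1.198 for Adamtsl2 (adjusted p = 0.0148) and 0.67 for Gpc6 (adjusted p = 0.0188). The Htra1 difference was called under every alternative run. That of Adamtsl2 was not called without the pools of low Xist (adjusted p = 0.0598) or without the 3rd WT pool (0.0555). That of Gpc6 was not called without the 3rd Mib1 mutant pool (0.0530), the 2nd (0.0532) or 3rd (0.0656) Cre control pool, the 1st (0.0554) or 2nd (0.0588) triple heterozygote pool, or the 2nd (0.0735) or 3rd (0.0654) WT pool.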

How the results depend on the processing

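Counts of called genes moved with the processing, given here for the 45 matrix genes and then for all genes. For the Mib1 mutant against the Cre control, 3 and 210 were called; without a filter on low counts 11 and 476, with DESeq2 8 and 398 (P4ha3, Vcan, Adamts2, Fn1 and Bgn were added in both, and Aspn, Fmod and Mmp2 without a filter), with only the libraries compared 3 and 93, and without the pools of low Xist 2 and 110. For the triple heterozygote against WT, 0 and 3 were called; without a filter 0 and 54, with DESeq2 1 and 34, and with only the libraries compared 0 and 10. For the difference between effects, 1 and 72 were called; without a filter 4 and 246, with DESeq2 3 and 162 (Tnc and Aspn were added in both, and Adamts2 without a filter), and without the pools of low Xist 1 and 41. For the Cre control against WT, 0 and 39 were called; without a filter 0 and 144, with DESeq2 0 and 78, and with only the libraries compared 0 and 68. The cause was not tested. Of the 45, 42 had a positive log2 fold change in the Mib1 mutant, and 36 without the pools of low Xist (median 0.16). Median-ratio size factors kept every count within 1.5 times, and moved the median log2 fold change of all genes by at most 0.00912.

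Leaving out each pool in turn gave 3 to 4 matrix genes and 116 to 415 genes in all for the Mib1 mutant comparison (415 without the 2nd Mib1 mutant pool; 123 and 116 without the 2nd and 3rd Cre control pools), 0 and 1 to 3 for the triple heterozygote comparison (1 when a WT pool was left out), 1 to 3 and 28 to 233 for the difference, and 0 and 23 to 42 between controls (23 and 25 without the 1st and 2nd WT pools). In the difference, 233 were called without the 2nd Mib1 mutant pool, and fewer than the main count by over 1.5 times without the 3rd Mib1 mutant pool (41), the 2nd (43) or 3rd (38) Cre control pool, the 1st (33) or 2nd (28) triple heterozygote pool, or the 1st (36), 2nd (31) or 3rd (32) WT pool.

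Same-numbered pools share only a number: the correlations of their deviations from group means were 0.13, 0.17 and 0.01 for the Mib1 mutant and Cre control, and 0.09, −0.01 and −0.06 for the triple heterozygote and WT. With the replicate block, the counts of matrix genes and of all genes called were 6 and 318 in the Mib1 mutant comparison (Vcan, Bgn and P4ha3 were added), 0 and 3 in the triple heterozygote comparison, 2 and 109 for the difference (Tnc was added) and 0 and 59 between controls.

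The log2 fold changes of the genes named by the rule and of those described beside them gave 584 values under alternatives for 46 results: 529 kept direction and side of the threshold, 27 passed it newly, 28 lost it, and 0 changed sign. A fit of only the libraries compared cannot be made for the difference, which uses all 4 groups, and the pools of low Xist do not enter the triple heterozygote comparison. Each group had 3 pools, and 1 read was worth at most 0.0991 CPM.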
